A study of Mus musculus with 24 samples.

Results

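Primary cortical neurons that lack the histone variant gene H2be were compared after 30 min of BDNF and without BDNF, by sequencing of polyadenylated RNA. The comparison used 8 of the 24 libraries of the series: 4 knockout libraries treated with BDNF for 30 min (KO 30 min) and 4 untreated knockout libraries (KO control). They were chosen by genotype and treatment labels alone, and were paired by the culture code in the descriptions, KO2A, KO2B, KO2C and KO2D, which each give 1 library to both groups. The genotype of all 8 is labelled H2BE-KO/mCherry-KI, so the controls carried the same deletion and the same knocked-in mCherry reporter as the treated cells. Wild-type (WT) libraries from cultures WT2C, WT2D, WT2E and WT2F, 4 at 30 min of BDNF and 4 controls, show where the knockout response differed. The libraries at 24 h of BDNF, 4 in each genotype, entered the common estimate of the spread and a check of the 30 min libraries. All neurons came from E16.5 mouse embryos and were grown for 12 days. The study states 4 biological replicates per group, and the labels do not say whether a culture came from 1 embryo or from pooled embryos.

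The neurotrophin BDNF, brain-derived neurotrophic factor, is released by neurons and binds the receptor tyrosine kinase TrkB, the product of Ntrk2. Bound TrkB switches on the MAP kinase, PI3 kinase and phospholipase C pathways, and kinases of these pathways phosphorylate transcription factors such as CREB and ELK1 that already sit in the cell. Immediate early genes are transcribed within minutes of such a signal, without new protein synthesis. Many of them encode transcription factors that act on later genes, and others encode phosphatases that shut the kinases off again or proteins that act at synapses. H2BE is a variant of histone H2B, a core protein around which DNA is wrapped, and it is found at gene promoters in neurons.

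In KO neurons 25 of 16777 genes tested rose at 30 min of BDNF (0.149% of the genes tested) and 0 fell (0%), at an adjusted p under 0.05 in edgeR's quasi-likelihood test with the culture as a block. The 25 genes were 13 transcription factors and other nuclear regulators, 8 effector genes, 2 MAP kinase phosphatases and 2 overlapping genes at the miR-212/132 locus. Egr1 rose most, 18.9-fold, and Etv3 least, 1.29-fold, and 18 genes rose more than 2-fold. Each of the 25 was higher in 4 of 4 cultures, which was true of 5.94% of all genes tested, while 7.03% were lower in 4 of 4. For 24 of the 25, every 30 min library also lay above every control library, as it did for 0.614% of all genes tested, while 1.07% lay apart in the other direction. Both counts come from the values that made the calls and add no independent evidence. At an unadjusted p under 0.05, 556 genes were higher and 615 were lower, and the median log2 fold change over all genes tested was -0.01.

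Promoter letters are shown here because phosphorylated CREB, a target of kinases downstream of TrkB, binds the palindrome TGACGTCA, the cAMP response element (CRE), and its shorter core TGACG, which reads CGTCA on the other strand. RefSeq promoters on GRCm38.p6 were at hand for 18 of the 25 genes. Egr1, Arc, Ier2, Egr3, Sox9, Trib1 and 1700016P03Rik had none, so the shares below leave out the genes with the largest rises, Egr1 and Arc. In the 250 bases before the start of transcription, 3 of these 18 (16.7%) held the full palindrome, against 2.97% of the 12038 tested genes with a promoter and 1.77% of all 27025 genes with one. The core was present in 15 of the 18 (83.3%), against 29.4% of the tested genes and 19.8% of all genes; every full palindrome also counts as a core. The EGR site GCGNGGGCG or CGCCCNCGC was found in 3 of the 18 (16.7%; Btg2, Fosb and Nr4a1), against 10.2% of the tested genes. The CArG box, the site of serum response factor, was found in 1 (5.56%; Egr2), against 1.49% of the tested genes. The windows of the 18 genes held a median of 68.4% G and C, against 60.8% for the tested genes and 52.8% for all genes, and the part of this composition in the shares was not tested. The 3 genes with a full CRE are given first, 200 bases up to the base before the start, 5′ to 3′ on the gene's strand, with the CRE in capitals. Its first base lay 143 bases before the start in Dusp1, 166 in Btg2 and 62 in Plk2.
Dusp1: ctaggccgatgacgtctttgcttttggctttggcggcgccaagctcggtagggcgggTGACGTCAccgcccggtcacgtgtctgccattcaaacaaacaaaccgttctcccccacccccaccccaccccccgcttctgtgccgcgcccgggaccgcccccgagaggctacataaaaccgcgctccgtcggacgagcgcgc
Btg2: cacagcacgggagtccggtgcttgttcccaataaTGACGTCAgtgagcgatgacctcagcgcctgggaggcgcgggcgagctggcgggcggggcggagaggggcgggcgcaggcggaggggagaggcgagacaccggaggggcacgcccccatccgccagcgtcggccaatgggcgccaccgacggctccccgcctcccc
Plk2: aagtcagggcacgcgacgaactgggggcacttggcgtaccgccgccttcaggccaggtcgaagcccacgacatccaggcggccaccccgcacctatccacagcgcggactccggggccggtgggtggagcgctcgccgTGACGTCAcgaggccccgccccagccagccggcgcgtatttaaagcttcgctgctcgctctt

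The same stretch of Fos, Fosb and Nr4a1, chosen because their rise differed most firmly between KO and WT among the transcription factor genes with a promoter, held no full CRE. Capitals mark the 5-letter core, whose first base lay 129 and 66 bases before the start in Fos, 60 in Fosb, and 69 and 40 in Nr4a1.
Fos: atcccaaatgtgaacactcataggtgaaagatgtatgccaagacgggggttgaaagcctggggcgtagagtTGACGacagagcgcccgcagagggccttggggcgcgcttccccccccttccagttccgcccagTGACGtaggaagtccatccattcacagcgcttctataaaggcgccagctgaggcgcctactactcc
Fosb: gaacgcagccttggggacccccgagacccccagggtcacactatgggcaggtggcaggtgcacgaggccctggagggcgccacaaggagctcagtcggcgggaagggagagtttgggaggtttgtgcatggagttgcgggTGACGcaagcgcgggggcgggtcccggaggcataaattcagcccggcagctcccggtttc
Nr4a1: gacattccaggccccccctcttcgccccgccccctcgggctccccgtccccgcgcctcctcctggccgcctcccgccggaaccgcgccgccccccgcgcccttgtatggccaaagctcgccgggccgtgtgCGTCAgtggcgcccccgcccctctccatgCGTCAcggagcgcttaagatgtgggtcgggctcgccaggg

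The Dusp1 stretch is chr17:26508473-26508672 (minus strand), that of Btg2 chr1:134079156-134079355 (minus), and that of Plk2 chr13:110394844-110395043 (plus). The Fos stretch is chr12:85473690-85473889 (plus), that of Fosb chr7:19310046-19310245 (minus), and that of Nr4a1 chr15:101266646-101266845 (plus). A match of letters is a description and says nothing about binding in these neurons.

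Before the responses, the libraries themselves differed in ways that the groups do not explain. KO libraries held 19780486 to 58323877 counts at 30 min and 23734512 to 61860243 in control. The 30 min library of KO2C was the smallest of all 24 and detected 15323 genes, against 17926 to 21223 in the other KO 30 min libraries. Mitochondrially encoded transcripts took 21.7% of counts in the 30 min library of KO2D and 18.5% in its control, against 4.6% to 9.34% in the other 6 KO libraries. The level of Hist2h2be, the H2be gene, was 53.7 to 63.1 CPM (the count scaled to the library's total, with TMM factors) in KO 30 min and 49.96 to 60.6 CPM in KO control, above every WT 30 min library (at most 4.37 CPM) and every WT control library (at most 5.83 CPM). Counts over the gene therefore do not check the deletion, since the deleted part is not given in the labels. Hist2h2be did not pass the test at 30 min of BDNF in KO (log2 fold change 0.02 ± 0.16, adjusted p = 0.986).

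The KO2D library at 30 min also held transcripts that were low in the other 30 min libraries and high after 24 h of BDNF. The 20 genes used to show this were chosen on the WT contrast, as the largest rises at 24 h among genes with at most 1 CPM in every WT control and WT 30 min library. Their summed level in KO libraries was 10.3, 3.09, 4.82 and 6.93 CPM in control, 7.29, 3.89, 9.27 and 73.7 CPM at 30 min, and 70.1, 57.3, 56.4 and 77.4 CPM at 24 h, in the order KO2A, KO2B, KO2C, KO2D. The KO2D 30 min library thus reached 120% of the mean of the 24 h libraries of the other 3 cultures, while the highest other 30 min library reached 15.1%. Of the 20 genes, 16 were highest in KO2D among the KO 30 min libraries. Nptx2, a secreted synaptic pentraxin that is known to rise late after activity, measured 66.9, 52.3, 96.0 and 239.5 CPM at 30 min, against 81.4, 55.3, 77.4 and 57.0 CPM in control.

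The 24 h library of KO2D stood apart in the other direction. Genes that rose at 30 min were highest there among the KO 24 h libraries for 18 of the 25, with a median level of 151% of the mean of the other 3 libraries. Its Hist2h2be level was 21.3 CPM, and the other KO 24 h libraries held 49.98 to 60.9 CPM. It also held both Xist and the Y-linked Ddx3y, at 145 and 66.3 CPM. The control and 30 min libraries of KO2D held Xist at 423 and 426 CPM and Ddx3y at only 0.193 and 0.904 CPM. The 24 h library thus held Y-linked RNA that the other libraries of its culture nearly lacked. In the 30 min library of KO2D the same 25 genes stood at a median of 65.6% of the mean of the other 3 KO 30 min libraries, and 22 of them were lowest there. For 5 of the 25 the 30 min library of KO2D lay below the 24 h library of KO2D. Without the 30 min libraries of KO2C and KO2D, 23 genes rose and 0 fell, and 22 of the 23 were among the 25. Etv3, Csrnp1 and Trib1 were lost, and Jun was gained. Without the 24 h library of KO2D, which enters the fit of the spread, 29 genes rose: the 25 and Atf3, Jun, Adamts1 and Sik1.

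**Figure D1:**
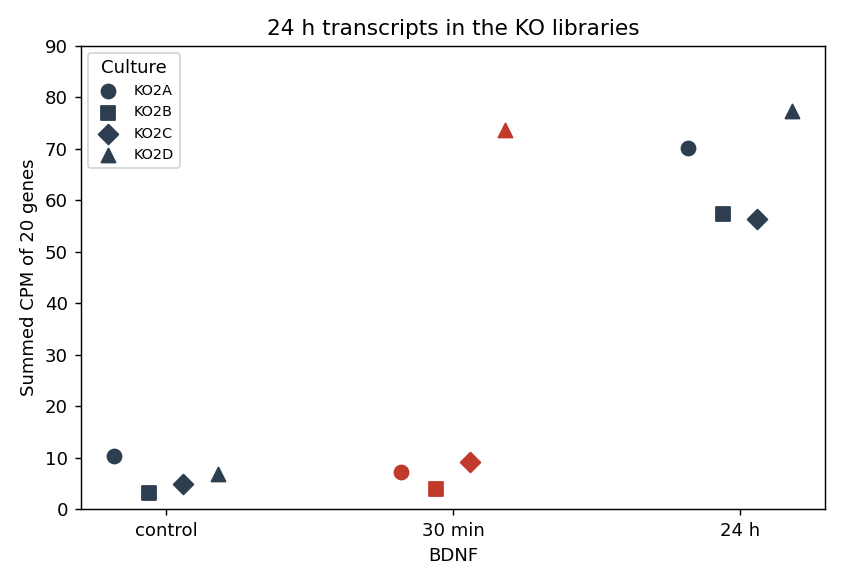
Summed level (CPM) of 20 genes that rise at 24 h of BDNF in WT, in each KO library in control, at 30 min and at 24 h, with a symbol per culture. The 30 min library of KO2D sits at 73.7 CPM, level with the 24 h libraries at 56.4 to 77.4 CPM, and the other 30 min libraries sit at 3.89 to 9.27 CPM.

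The EGR family encodes zinc finger factors that bind GC-rich promoter sites, and all 4 members rose. Egr1 had 540, 635, 447 and 231 CPM in KO 30 min libraries (KO2A, KO2B, KO2C, KO2D), against 30.8, 22.9, 23.8 and 21.9 CPM in KO control libraries. The groups lay far apart, and KO2D was the lowest of the 30 min libraries; the log2 fold change was 4.24 ± 0.37 (SE, adjusted p = 2.5e-06). Egr2, whose product also directs myelination in Schwann cells, had 50.3, 57.0, 29.1 and 23.5 CPM at 30 min, against 3.23, 3.08, 2.31 and 3.08 CPM in control. Its log2 fold change was 3.78 ± 0.33 (adjusted p = 2.5e-06), with KO2C and KO2D well under the other 2 treated libraries. Egr4 averaged 23.1 ± 8.69 CPM at 30 min and 3.15 ± 0.476 CPM in control (SD, n = 4 each), a log2 fold change of 2.87 ± 0.32. Egr3 averaged 14.7 ± 6.12 CPM at 30 min and 2.46 ± 0.431 CPM in control, a log2 fold change of 2.56 ± 0.29. Its KO2D 30 min library, at 6.05 CPM, was well under the next one at 15.5 CPM, yet still above every control.

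FOS and JUN family proteins pair to form the AP-1 factor. Fosb (chr7:19302696-19310051, mm10) had 133, 150, 104 and 70.7 CPM at 30 min, against 20.5, 18, 21.6 and 16.4 CPM in control. The log2 fold change was 2.55 ± 0.21 (adjusted p = 2.5e-06). Fos (chr12:85473890-85477273) had 514, 570, 406 and 242 CPM at 30 min, against 140, 113, 131 and 78.4 CPM in control. The groups did not overlap, and the log2 fold change was 1.88 ± 0.19 (adjusted p = 1.48e-05). Junb had 67.5, 92.6, 73.6 and 36.4 CPM at 30 min, against 19, 16, 13.6 and 10.2 CPM in control, a log2 fold change of 2.18 ± 0.27 (adjusted p = 0.000155). The annotation of Junb overlaps the end of Prdx2 on the other strand, and the strand setting of the counting is not given. Jun itself did not pass the test over all libraries, at 0.80 ± 0.18 (adjusted p = 0.173).

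Other nuclear genes with a rise fell into neuronal and general ones. Npas4, a neuron-specific factor that shapes inhibitory synapses, had 473, 486, 365 and 182 CPM at 30 min, against 100, 79.2, 76.1 and 42.9 CPM in control (log2 fold change 2.32 ± 0.26, adjusted p = 3.58e-05). Nr4a1, an orphan nuclear receptor, had 249, 279, 155 and 115 CPM at 30 min, against 71.0, 65.8, 67.7 and 41.2 CPM in control (1.66 ± 0.21, adjusted p = 0.00024). In both genes the order of the treated libraries was KO2B, KO2A, KO2C, KO2D, and the KO2D control was the lowest control. Ier2, a small nuclear regulator, was almost the same in every control, 10.5 to 10.7 CPM, and reached 36.1 to 85.6 CPM at 30 min (2.60 ± 0.23). Csrnp1, a nuclear protein first found as an axin-induced gene, rose by 0.98 ± 0.16 on the log2 scale, and Etv3, an ETS-family repressor, rose by 0.36 ± 0.07. Etv3 is the weakest call, with an adjusted p of 0.0452, and its groups overlapped: 25.1 to 39.9 CPM at 30 min, against 18.7 to 31.7 CPM in control.

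Sox9 encodes a factor of glial and progenitor cells and was the only called gene on the list of astrocyte markers. It had 11.5, 13.8, 14.4 and 8.67 CPM at 30 min, against 2.71, 4.70, 4.08 and 4.14 CPM in control, a log2 fold change of 1.66 ± 0.24 (adjusted p = 0.00142). Of the 10 astrocyte markers, 1 rose, 0 fell and 9 did not pass, while 0.149% of all genes tested rose. Only 2 of the 10 had a positive log2 fold change. The summed level of the list was 226 to 296 CPM at 30 min and 185 to 327 CPM in control, with no marker at 0 in all 8 libraries. Slc1a2 made up most of the sum, at 185 to 264 CPM at 30 min and 159 to 289 CPM in control. The sum therefore says little about the other markers. Other markers of the list moved with the culture: the median log2 change was -0.04, -0.99, -1.51 and 0.42 in KO2A, KO2B, KO2C and KO2D. Aqp4 and Gfap, the water channel and the filament protein of astrocytes, averaged 0.739 and 0.443 CPM at 30 min, against 2.83 and 0.987 CPM in control. With no filter on low counts Aqp4, Gfap, Gja1, Aldoc and Slc1a3 passed as lower (adjusted p of at most 0.0234). In the edgeR test with the filter the same markers did not pass (adjusted p of 0.704 to 0.722). The fit with no filter gave much smaller SEs, for Egr1 and Arc among others. These falls thus rest on a smaller estimate of the spread and do not establish a decline of astrocyte markers. In bulk RNA, fewer cells of a type and less RNA per cell cannot be told apart. Sox9 rose in all 4 cultures, also in KO2B and KO2C.

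Of the effector genes, Arc encodes a capsid-like protein that drives removal of AMPA receptors from synapses. Arc (chr15:74669083-74672570) had 141, 123, 87.5 and 60.4 CPM at 30 min, against 9.11, 4.98, 5.78 and 4.04 CPM in control. The log2 fold change was 4.11 ± 0.37 (adjusted p = 2.53e-06), the second largest of all genes called. Ccn1, which encodes a secreted matrix protein that binds integrins, was the most even across treated cultures, at 156, 159, 152 and 136 CPM at 30 min, against 17.3, 13.2, 18.1 and 14.5 CPM in control (3.27 ± 0.29, adjusted p = 2.5e-06). Btg2 and Tob1 encode related antiproliferative proteins that bind the deadenylase complex which shortens messenger RNA tails. Btg2 had 125, 125, 82.0 and 66.2 CPM at 30 min, against 14.3, 11.8, 13.3 and 12.4 CPM in control (2.96 ± 0.29). Tob1 moved less, with 29.0, 28.9, 20.2 and 19.2 CPM at 30 min, against 14.3, 13.7, 14.8 and 13.1 CPM in control (0.80 ± 0.14, adjusted p = 0.016).

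Gadd45g, a stress-response gene whose family takes part in DNA demethylation, rose by 1.5 ± 0.15 on the log2 scale, with 24.2 to 40.0 CPM at 30 min and 10.7 to 13.1 CPM in control. Its relative Gadd45b did not pass the test: 7.146, 7.28, 2.58 and 5.15 CPM at 30 min, against 4.62, 3.66, 3.81 and 3.66 CPM in control (0.46 ± 0.23, adjusted p = 0.711). The KO2C library at 30 min lay under every control for Gadd45b. Trib1, a pseudokinase that guides substrates to degradation, rose by 0.94 ± 0.15. Plk2 encodes a polo-like kinase that acts in synaptic scaling and was steady at 227, 227, 192 and 227 CPM at 30 min, against 154, 157, 149 and 146 CPM in control (0.52 ± 0.07, adjusted p = 0.000236). Dnajb1, a co-chaperone of HSP70, was higher by 0.44 ± 0.08 (adjusted p = 0.0158), and its KO2D library at 30 min, at 70.2 CPM, barely exceeded the highest control at 69.3 CPM.

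The 2 phosphatases remove phosphate from MAP kinases. Dusp1, a nuclear enzyme that acts on ERK, JNK and p38, had 175, 177, 135 and 114 CPM at 30 min, against 57.8, 50.4, 58.5 and 42.3 CPM in control (1.52 ± 0.14, adjusted p = 2.53e-06). Dusp6, a cytoplasmic enzyme specific to ERK, had 98.8, 105, 95.4 and 69.8 CPM at 30 min, against 46.4, 53.3, 58.8 and 29.2 CPM in control (0.99 ± 0.16, adjusted p = 0.00405). KO2D was low in both groups for Dusp6, and its rise within the culture, 1.3 on the log2 scale, was the largest of the 4.

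On chromosome 11, 1700016P03Rik and Ovca2 rose together. 1700016P03Rik (chr11:75172560-75177633, plus strand, mm10) is the transcript that spans the precursors of miR-212 and miR-132, and it was named after its values were seen, since the naming rule passes over Rik symbols. It had 6.79, 7.23, 11 and 12.5 CPM at 30 min, against 2.12, 1.86, 3.43 and 2.89 CPM in control (1.84 ± 0.24, adjusted p = 0.000252). Here KO2D was the highest treated library. Ovca2 (chr11:75175942-75178835, minus strand) overlaps it on the other strand and had 15.7, 18.3, 11.6 and 18.7 CPM at 30 min, against 4.65, 5.14, 4.76 and 6.74 CPM in control (1.61 ± 0.21, adjusted p = 0.00038). With the strand setting not given, reads of the overlap cannot be told apart. Mature miRNAs were not measured, and polyadenylated RNA would report only the primary transcript. The mature sequences on this transcript are printed because both microRNAs have the same seed, bases 2 to 8, in capitals.
mmu-miR-212-3p: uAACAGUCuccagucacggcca
mmu-miR-132-3p: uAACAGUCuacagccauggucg

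**Figure D2:**
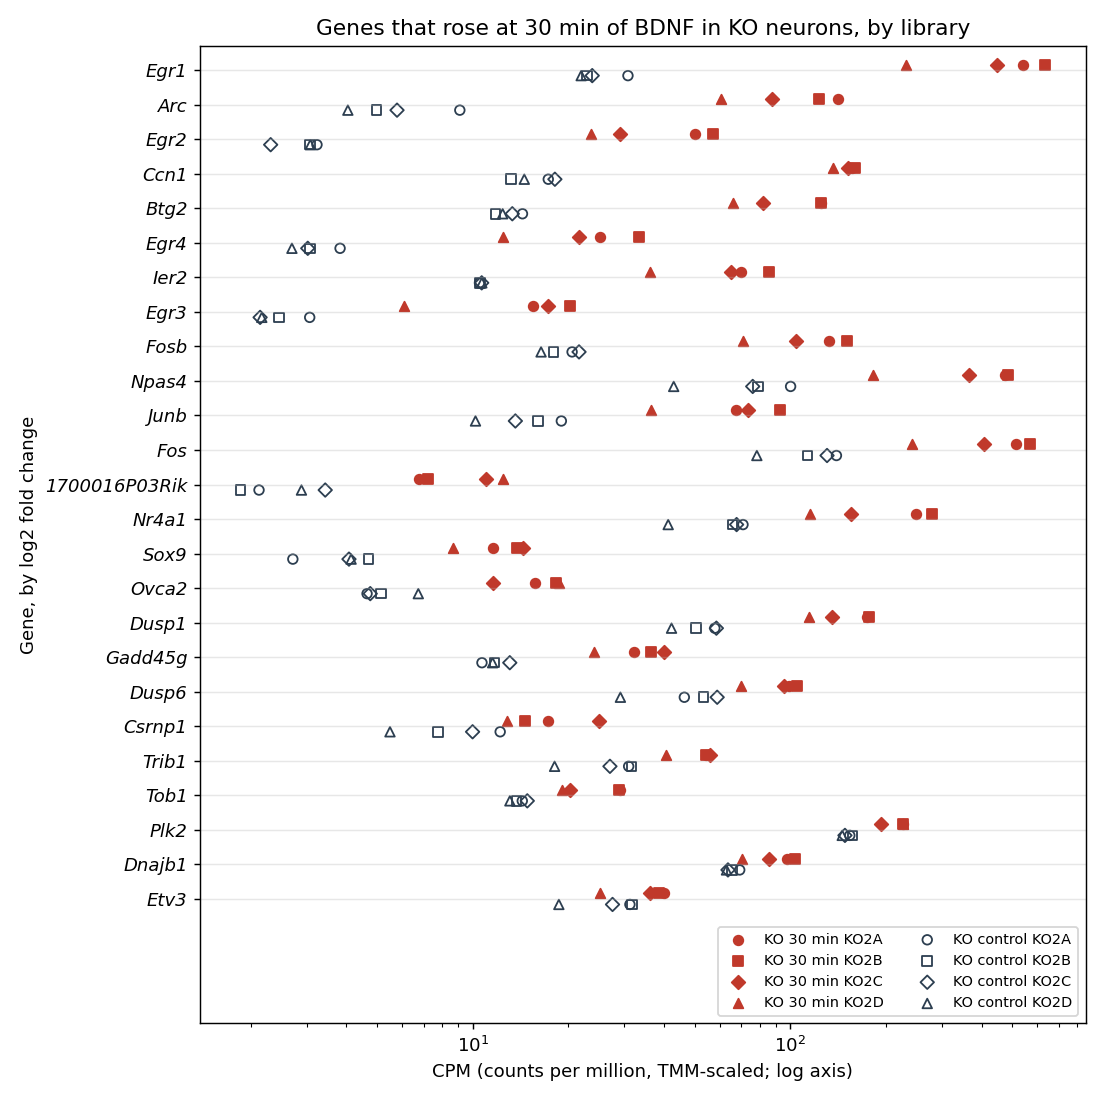
Level (CPM, log axis) of the 25 genes that rose at 30 min of BDNF in KO neurons, in each KO 30 min library (filled red) and each KO control library (open), with a symbol per culture. The filled and open symbols are apart for every gene but Etv3, and the triangle of KO2D is the lowest filled symbol for 22 of the 25 genes.

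The 4 cultures agreed in direction for all 25 genes and differed in size. The median log2 change within a culture over the 25 was 1.83 in KO2A, 2.08 in KO2B, 1.67 in KO2C and 1.48 in KO2D, while medians over all genes tested lay between -0.04 and 0.002. KO2B gave the largest rise for 18 of the 25 genes. KO2D gave the smallest for 13 and KO2C for 7. In WT cultures the same 25 genes had median changes of 3.57 to 4.42. The control libraries of KO2B, KO2C, KO2D, WT2E and WT2F are numbered 2 in the descriptions and those of KO2A, WT2C and WT2D are numbered 1, a number whose meaning is not given. Within the cultures numbered 2, 15 genes rose, all of them among the 25, and within those numbered 1 there was 1 KO culture and no test.

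**Figure D3:**
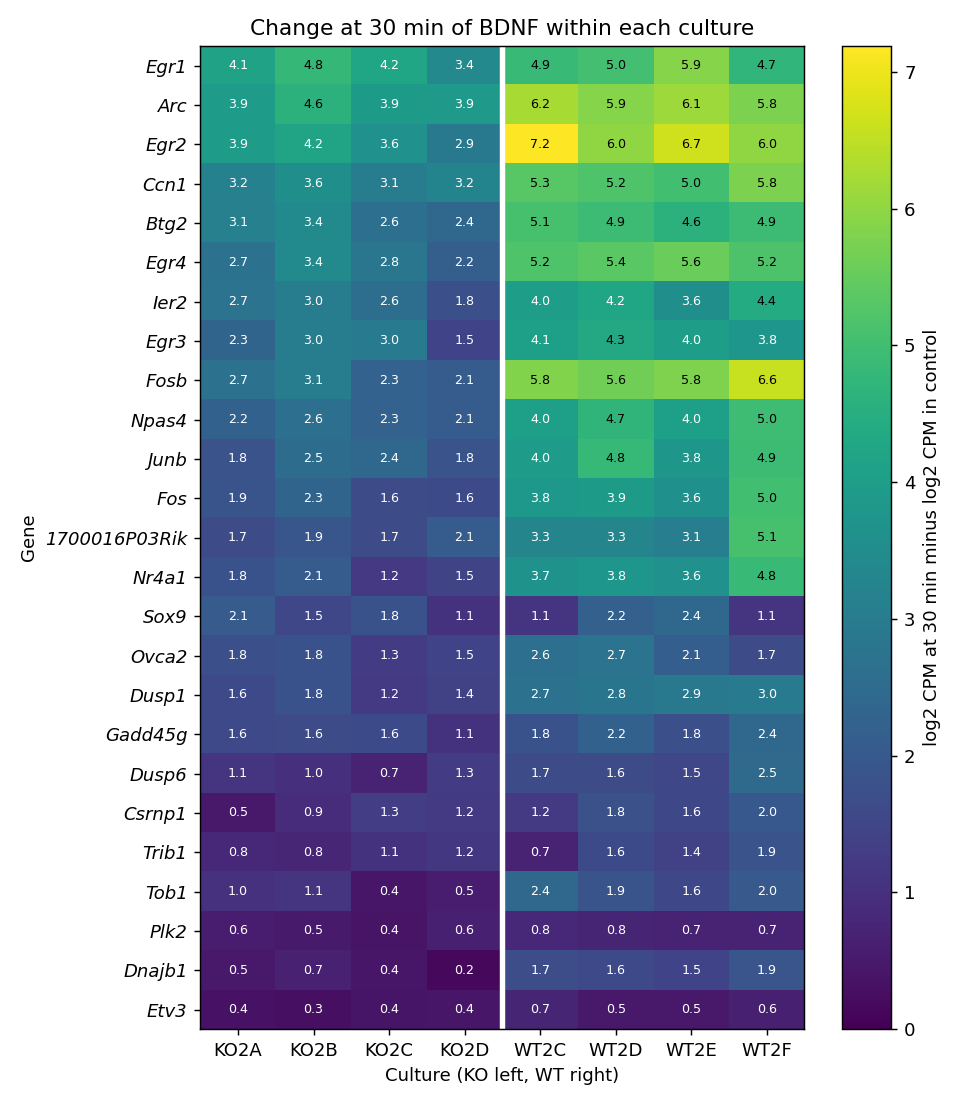
Change within each culture (log2 CPM at 30 min minus log2 CPM in the control of the same culture) of the 25 genes that rose in KO, for the 4 KO cultures (left) and the 4 WT cultures (right). Every cell is above 0, and the KO medians of 1.48 to 2.08 lie under the WT medians of 3.57 to 4.42.

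Rapid genes mostly leaned upward, in counts over whole lists that include the genes that passed. The genes that passed were all higher in 4 of 4 cultures, so they raise the counts and medians given here. Of 38 rapid transcription factor genes, 11 rose, 0 fell and 27 did not pass, while 0.149% of all genes tested rose. Of the 38, 31 had a positive log2 fold change and 22 were higher in 4 of 4 cultures, beside 5.94% of all genes tested. The median was 0.38, beside -0.01 over all genes tested, so positive changes were not the majority among all genes. Of 33 rapid effector genes, 7 rose (6 without the 30 min libraries of KO2C and KO2D) and 0 fell. Of the 33, 31 were positive, 19 were higher in 4 of 4 cultures, and the median was 0.41. Just outside the threshold were Adamts1, a secreted metalloprotease gene (0.82 ± 0.17, adjusted p = 0.0622), Ifrd1 (0.46 ± 0.10, adjusted p = 0.116) and Atf3, a stress-induced factor of the CREB family (0.69 ± 0.15, adjusted p = 0.116). Just inside it were Etv3 and Tob1, described above.

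Among MAP kinase feedback genes only the phosphatase genes Dusp1 and Dusp6 passed. Dusp1 and Dusp6 rose out of 22 genes, beside 0.149% of all genes tested. Of the 22, 15 were positive and 5 were higher in 4 of 4 cultures, beside 5.94% of all genes tested. The median was 0.08, beside -0.01 over all genes tested. The median change of the list within a culture was -0.01, 0.04, -0.15 and 0.50 in KO2A, KO2B, KO2C and KO2D, so KO2D was again the high culture. Spry2, an inhibitor of receptor tyrosine kinase signalling, and Dusp4, another nuclear MAP kinase phosphatase, did not pass, at 0.34 ± 0.12 and 0.26 ± 0.10 (adjusted p = 0.704 each). Both passed in WT, where Spry2 had 0.58 (adjusted p = 0.0155) and Dusp4 0.64 (adjusted p = 0.000814), but the difference between the genotypes did not pass for either (adjusted p = 1).

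Genes of the receptor and its pathways did not pass the test. Of 34 genes for TrkB, related receptors, adaptors, kinases and the factors they phosphorylate, 0 passed, 13 were positive, and the median was -0.03. Ntrk2 had 642.5, 712, 644 and 452 CPM at 30 min, against 582, 711, 645 and 409 CPM in control (0.07 ± 0.07, adjusted p = 0.823). Bdnf, which activity induces in neurons, had 252, 210, 248 and 312 CPM at 30 min, against 272, 209, 257 and 231 CPM in control (0.08 ± 0.16, adjusted p = 0.923). Levels of both overlapped between groups, and the Bdnf value of KO2D at 30 min was above every control.

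Late activity-regulated genes passed for 0 of 24, although 21 were positive and the median was 0.31. That median rested on KO2D: the median change of the list within a culture was -0.19, 0.04, -0.002 and 1.77 in KO2A, KO2B, KO2C and KO2D. Ifi209, an interferon-inducible gene, shows it, with 1.08, 0.643, 0.618 and 31.4 CPM at 30 min, against 1.89, 0.317, 0.544 and 2.695 CPM in control. Its log2 fold change was 1.54 ± 0.73 over 4 cultures (adjusted p = 0.709) and -0.41 ± 0.46 without the 30 min libraries of KO2C and KO2D (adjusted p = 1). Ifi209, Mmp3, Serpinb2, Tm4sf1, Akr1b8, Galr1 and Sele are also among the genes used above to show 24 h transcripts in KO2D. The high KO2D value of this list is therefore not a separate observation.

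Among the remaining lists, Dnajb1 alone rose of 15 heat shock genes tested, beside 0.149% of all genes tested, with 14 positive and a median of 0.14. Hspa5, the chaperone of the endoplasmic reticulum, had 720, 577, 785 and 1263 CPM at 30 min, against 696, 545, 601 and 703 CPM in control, and did not pass (adjusted p = 0.417). Again KO2D was the high library. Of 14 cytoskeletal targets of serum response factor 0 passed (median 0.17), as did 0 of 14 FoxO targets (median -0.03) and 0 of 27 glutamate receptor and postsynaptic genes (median -0.03). Of the 12 mitochondrially encoded genes tested 0 passed, with a median of -0.14 and medians within a culture of -0.43, -0.04, -0.48 and 0.36 in KO2A to KO2D.

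**Figure D4:**
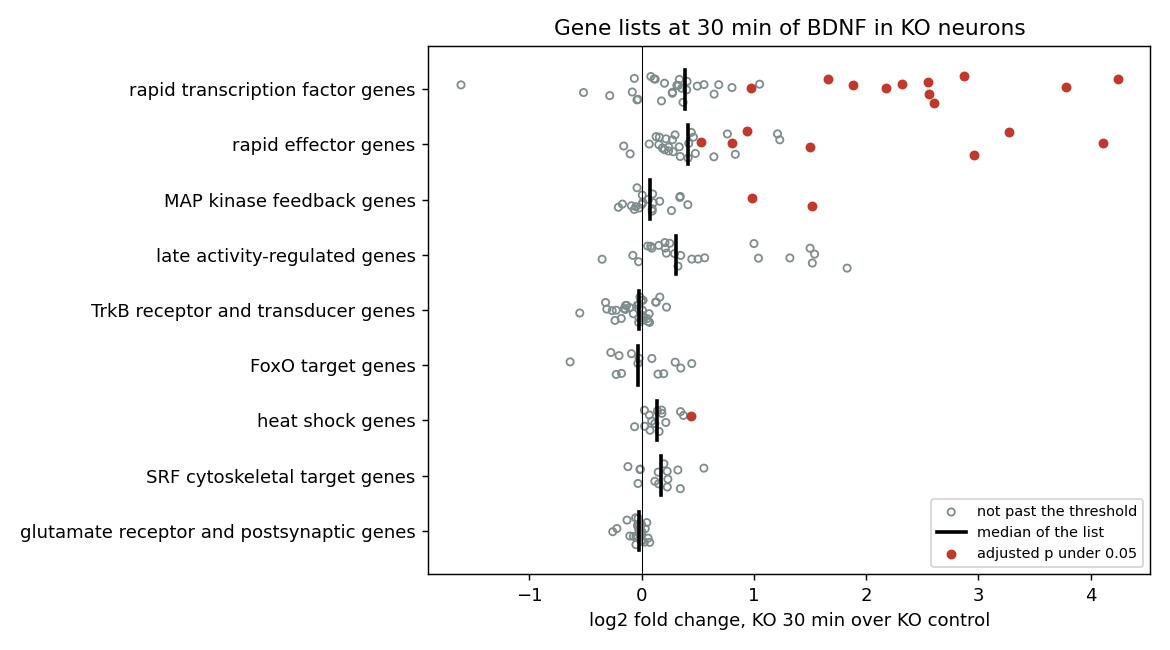
Log2 fold change, KO 30 min over KO control, of each gene tested in 9 function lists. Filled red points passed an adjusted p of 0.05, open points did not, and black bars mark list medians; the red points lie in the rapid transcription factor, rapid effector, MAP kinase feedback and heat shock lists.

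Summed levels of markers of the cell types a cortical culture can hold overlapped between the groups. Summed levels were 631 to 717 CPM at 30 min and 686 to 759 CPM in control for 9 excitatory neuron markers, and 2430 to 3210 CPM at 30 min and 2350 to 3180 CPM in control for 9 inhibitory neuron markers. Microglia markers summed to 1.22 to 6.32 CPM at 30 min and 1.63 to 6.35 CPM in control. Progenitor and dividing cell markers summed to 22.8 to 30.5 CPM at 30 min and 17.1 to 28.3 CPM in control. Overlapping sums do not show the change within a culture. For progenitor and dividing cell markers its median was 0.08, -0.455, -1.07 and 0.72 in KO2A, KO2B, KO2C and KO2D (log2 scale). In the same order it was -0.20, -0.36, -0.45 and 0.69 for oligodendrocyte lineage markers. Endothelial and mural markers had another order, at -0.29, 0.50, 0.26 and -0.17. Sox9 aside, 0 markers of any of the 8 lists passed the test with the filter on low counts.

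With all libraries and the filter on low counts, no gene passed as lower in edgeR or in limma voom. DESeq2 called 33 genes higher and 9 lower. In edgeR 45 genes passed as lower with no filter, a fit with much smaller SEs for genes such as Egr1 and Arc. With a library left out 0 to 1 passed as lower. Ptgds, a prostaglandin synthase of meninges and choroid plexus, had the smallest p of the 9 genes in DESeq2. It measured 0.224, 0.288, 0 and 0.271 CPM at 30 min, against 0.755, 0.872, 3.47 and 0.77 CPM in control (log2 fold change in DESeq2 -2.59 ± 0.60, adjusted p = 0.00836; edgeR adjusted p = 0.413). Cdk4, the cyclin D kinase, had 41.7 to 48.9 CPM at 30 min and 47.1 to 60 CPM in control (DESeq2 -0.22 ± 0.05, adjusted p = 0.0275; edgeR adjusted p = 0.417). Both were named after their values were seen. The other 7 genes had at most 4.89 CPM in any of the 8 libraries.

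Set against WT, no gene passed in KO that did not also pass in WT. In WT 98 genes rose at 30 min (0.584% of genes tested) and 0 fell. All 25 KO genes were among the 98, so the overlap was 100% of the KO list and 25.5% of the WT list. Of the 98, chosen on the WT contrast in a model whose spread the KO libraries share, 95 had a positive log2 fold change in KO and 58 (59.2%) were higher in 4 of 4 KO cultures, beside 5.94% of all genes. Their median log2 fold change was 0.32 in KO and 0.94 in WT, and choosing them on WT favours the WT value.

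The difference in response, KO minus WT, was tested gene by gene. With all libraries it was below 0 for all 25 genes, with a median of -1.45, and 13 of the 25 passed an adjusted p of 0.05. Leaving out the 30 min libraries of KO2C and KO2D gave 0.10 for Sox9 and narrowed most gaps, such as Arc (-1.88 to -1.44) and Egr1 (-0.87 to -0.47). The rise in KO was then larger for most genes, such as Egr1 (4.24 to 4.63). For Csrnp1, Trib1, Etv3 and 1700016P03Rik the rise was smaller and the gap wider. Without the 30 min libraries of KO2C and KO2D 5 of the 25 passed (Fosb, Fos, Nr4a1, Dusp1 and Dnajb1), and without the culture block 4 passed. Of the 25, 5, 8 and 6 passed without the control library of KO2A, KO2B or KO2C, and 8 without the 30 min library of KO2A or of KO2C. Over all genes 30 passed with a smaller response in KO (0.179%) and 0 with a larger one. At an unadjusted p under 0.05, 500 of 16777 genes differed, which is below a share of 0.05 of the genes tested. DESeq2 called 46 with a smaller and 2 with a larger response in KO. The count of 30 depends on the block and on single libraries. Without the culture block 8 genes passed, all among the 30, without the 30 min libraries of KO2C and KO2D 12 passed, also all among the 30, and within the cultures numbered 2 only 1 passed. The count was 38 without the 24 h library of KO2D. It was 13, 17 and 14 without the control library of KO2A, KO2B or KO2C, and 17 and 18 without the 30 min library of KO2A or KO2C. Fosb passed under every alternative in which the difference was tested.

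Fosb showed the largest difference. Its log2 fold change was 2.55 ± 0.21 in KO and 6.0 ± 0.25 in WT, a difference of -3.45 ± 0.30 (adjusted p = 8.96e-06). Levels differed at both times: 70.7 to 150 CPM in KO and 189 to 261 CPM in WT at 30 min, and 16.4 to 21.6 CPM in KO and 2.54 to 5.12 CPM in WT in control. Both the lower treated level and the higher untreated level in KO thus enter the smaller fold. Fos had the same layout, with 242 to 570 CPM in KO and 620 to 914 CPM in WT at 30 min, and 78.4 to 140 CPM in KO and 20.5 to 74.2 CPM in WT in control (difference -2.20 ± 0.27, adjusted p = 0.000711). Over the 25 genes, the KO control libraries lay above all WT control libraries for 8 and below all of them for 1, Tob1. All KO 30 min libraries lay below all WT 30 min libraries for 14.

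In Btg2 and Egr2 the untreated levels of KO and WT overlapped, and the treated levels did not. Btg2 had 66.2 to 125 CPM in KO and 293 to 432 CPM in WT at 30 min, and 11.8 to 14.3 CPM in KO and 11.8 to 13.5 CPM in WT in control (difference -1.95 ± 0.39, adjusted p = 0.0458). Egr2 had 23.5 to 57.0 CPM in KO and 145 to 255 CPM in WT at 30 min, and 2.31 to 3.23 CPM in KO and 1.32 to 3.91 CPM in WT in control (difference -2.58 ± 0.46, adjusted p = 0.0196). Without the 30 min libraries of KO2C and KO2D neither difference passed: it was -1.46 for Btg2 (adjusted p = 0.213) and -2.07 for Egr2 (adjusted p = 0.0663). In Dnajb1 and Gadd45b untreated KO levels lay above untreated WT levels. Dnajb1 had 70.2 to 103 CPM in KO and 150 to 165 CPM in WT at 30 min, and 62.95 to 69.3 CPM in KO and 44.5 to 56.5 CPM in WT in control, a difference of -1.22 ± 0.11 (adjusted p = 1.02e-05). Gadd45b, which did not pass in KO, had 2.58 to 7.28 CPM in KO and 11.1 to 20.9 CPM in WT at 30 min, and 3.66 to 4.62 CPM in KO and 2.1 to 2.7 CPM in WT in control. It rose by 2.85 on the log2 scale in WT, and the difference was -2.39 ± 0.32 (adjusted p = 0.00131).

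For 12 of the 25 genes the difference did not pass, which does not show that the genotypes respond alike. Sox9 had nearly the same fold in both, 1.66 ± 0.24 in KO and 1.76 ± 0.25 in WT, and the 95% interval of the difference ran from -0.81 to 0.61. For Egr1 the log2 fold change was 4.24 in KO and 5.11 in WT, and the interval of the difference, -1.84 to 0.11 on the log2 scale, was wide. Plk2 had 192 to 227 CPM in KO and 236 to 247 CPM in WT at 30 min, with an interval from -0.41 to -0.02. The intervals of 10 of the 12 lay below 0, Arc (-2.92 to -0.84), Ier2 (-2.11 to -0.79) and Dusp6 (-1.29 to -0.37) among them, although none passed after adjustment over all genes.

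**Figure D5:**
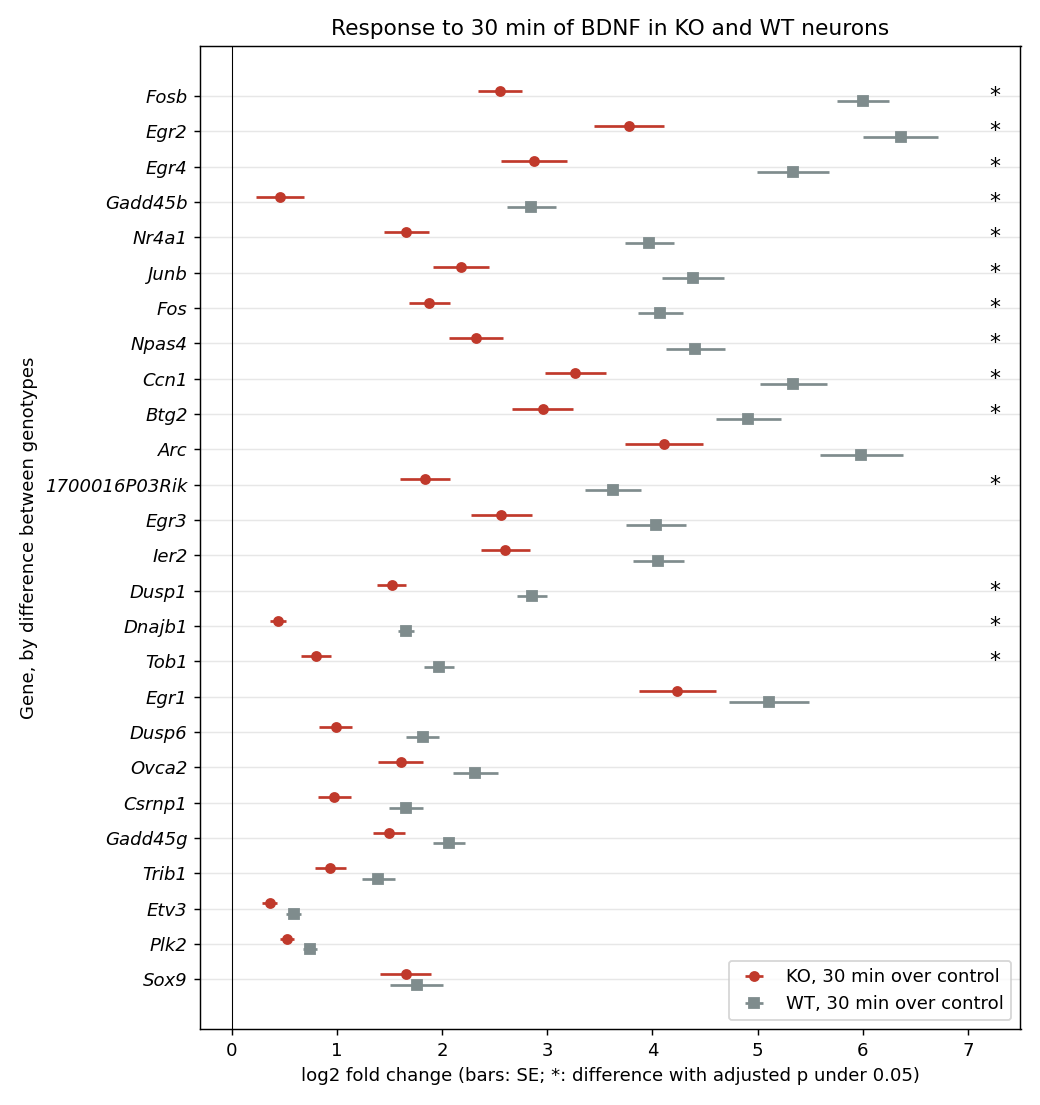
Log2 fold change at 30 min of BDNF over control (points, with SE as bars) in KO neurons (red circles) and WT neurons (grey squares), for the 25 genes that rose in KO and Gadd45b, ordered by the difference. Stars mark the 14 genes whose difference passed an adjusted p of 0.05; Fosb, at the top, has the widest gap (-3.45) and Sox9, at the bottom, the narrowest (-0.10).

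Most of the 25 genes were lower at 24 h of BDNF than at 30 min in KO. Mean levels were higher at 30 min than at 24 h for 23 of the 25, and the exceptions were Plk2 and Csrnp1. At 24 h, 14 of the 25 were still higher than control and 0 were lower, beside 8.3% and 8.59% of all genes tested. Without the 24 h library of KO2D 10 were higher and 0 lower, beside 9.19% and 10.3% of all genes tested, and Egr4, Ier2, Trib1 and Dusp1 were lost. Arc stood at 4.04 to 9.11 CPM in control, 60.4 to 141 CPM at 30 min and 18.5 to 61.5 CPM at 24 h, and the highest 24 h value was that of KO2D. Both responses share the KO control libraries.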

How the data were processed

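Messenger RNA was measured in 24 libraries, 4 in each of 6 groups. Per the labels' protocols, total RNA was purified with a column kit and polyadenylated RNA was made into libraries with a stranded TruSeq kit. The deposited values are read counts per gene, whole numbers that the authors left unnormalised. STAR 2.7.9a, DESeq2 1.38.3, limma 3.54.2, edgeR 3.40.2 and mm10 are named in the submitters' processing notes, without their roles. The counting program, strand setting and annotation were not given in the sources used here. Symbols and coordinates came from GENCODE M21 (mm10) by identifier for 45229 of 45792 genes (98.8%); the other 563 held 0.0662% of counts. Libraries held 19780486 to 62135270 counts. Reads carried no molecular identifiers, so they are not independent molecules.

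The test was edgeR 4.0.16 (R 4.3.3; TMM factors; filterByExpr, minimum count 10 and total 15), Benjamini-Hochberg adjusted over 16777 genes. A single quasi-likelihood model of 24 libraries held a term for each of 8 cultures and the 30 min and 24 h effects of each genotype, with 12 residual degrees of freedom. SE is the log2 fold change over the square root of F. Levels are in CPM after TMM scaling, and a prior count of 2 was added for log2 CPM. Alternatives were no culture block, fewer groups, DESeq2 size factors, DESeq2 1.42.0, limma 3.58.1 (voom), other filters and libraries left out.

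The culture code in the descriptions pairs the libraries. Deviations from group means of a culture's 30 min and control libraries correlated at 0.242 (KO2A), 0.28 (KO2B), 0.0464 (KO2C) and 0.245 (KO2D), and the highest correlation with another culture's control was 0.0903.

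Named genes were those past an adjusted p of 0.05 with a mean of at least 1 CPM and the same sign in 4 cultures (at most 30 rises and 15 falls), up to 4 members per function list with the smallest p, and the 10 largest differences of each sign. Hist2h2be, Bdnf and Ntrk2 were always named, and predicted gene models were passed over. Some list members that this rule names are not reported here. The comparison, the gene lists and these rules were chosen with earlier results of these data known. Sequences are from RefSeq.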

Additional observations from a re-analysis of the deposited data

Results flagged for a closer look

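Within a group of 4 libraries, 8 of 62 sets of values had a library far from the other 3; chance gives about 1 in 20. Of these, 3 concerned whole libraries. The 30 min library of KO2D held 21.7% mitochondrially encoded transcripts and 73.7 CPM of 24 h transcripts, and the 30 min library of KO2B had the highest Hist2h2be level, 63.1 CPM. The other 5 concerned the change within a culture of named genes. Arc rose most in KO2B, by 4.61 on the log2 scale. Gadd45g rose least in KO2D, by 1.06. In KO2D, Vcl, which encodes the adhesion protein vinculin, had a change of 0.62, and Elk1, an ETS factor phosphorylated by ERK, one of -0.96. Nlgn3, a synaptic adhesion gene, had 0.00832 in KO2C. Vcl, Elk1 and Nlgn3 did not pass the test in KO.

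A smaller response in KO than in WT passed the test of the difference for 14 named genes, and for 6 of them without the 30 min libraries of KO2C and KO2D (Fosb, Fos, Nr4a1, Dusp1, Gadd45b and Dnajb1). Of 18 alternatives, the call was lost in 12 for 1700016P03Rik, 10 for Btg2, 9 each for Ccn1 and Egr4, 7 for Egr2, 5 each for Npas4 and Junb and 4 for Tob1. It was lost in 2 each for Fos, Nr4a1 and Dusp1, 1 each for Gadd45b and Dnajb1, and 0 for Fosb. On the log2 scale it was -3.45 for Fosb, -2.58 for Egr2, -2.46 for Egr4, -2.39 for Gadd45b and -2.31 for Nr4a1. It was -2.21 for Junb, -2.20 for Fos, -2.09 for Npas4, -2.07 for Ccn1 and -1.95 for Btg2. The smallest were -1.79 for 1700016P03Rik, -1.33 for Dusp1, -1.22 for Dnajb1 and -1.17 for Tob1. Each of these genes was higher in 4 of 4 KO cultures except Gadd45b, which was higher in 3.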

How the results depend on the processing

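The 25 rises in KO were 21 without the culture block, 33 in DESeq2, 84 with no filter on low counts, 15 within the cultures whose control is numbered 2, 29 without the 24 h library of KO2D, and 21 to 26 with a KO control or KO 30 min library left out. Falls numbered 9 in DESeq2, 45 with no filter and 0 to 1 with a library left out. A smaller response in KO was called for 8 genes without the block, 46 in DESeq2, 73 with no filter, 12 without the 30 min libraries of KO2C and KO2D, 1 within the cultures numbered 2, 38 without the 24 h library of KO2D, and 13 to 31 with a library left out. A larger response in KO was called for 2 genes in DESeq2, 7 with no filter and 0 to 1 with a library left out. With no filter, rises numbered 11 among rapid effector, 7 among late, 1 among FoxO and 2 among heat shock genes and 5 astrocyte markers fell. The fit with no filter gave much smaller SEs, for Egr1 and Arc among others, so its added calls rest on a smaller estimate of the spread. Without the block 0 heat shock genes rose. Egr1, Arc, Egr2, Ccn1, Btg2, Egr4, Ier2, Egr3, Fosb, Npas4, Junb, Fos, Dusp1 and Gadd45g passed in all 19 alternatives. Etv3 was lost in 14, Dnajb1 in 10 and Tob1 in 7. Direction turned only for genes that had not passed. Without the 30 min libraries of KO2C and KO2D the log2 fold change was -0.41 for Ifi209, -0.0474 for Akr1b8, -0.27 for Gimap6, -0.17 for Nptx2, -0.12 for Fhl2, -0.0484 for Bcl6, -0.0715 for Bdnf, -0.085 for Hist2h2be and 0.0445 for Ccng2. With a single library left out it ran from -0.394 to 2.19 for Ifi209, -0.00181 to 0.800 for Nptx2, -0.0988 to 0.146 for Bdnf, -0.0159 to 0.535 for Fhl2 and -0.137 to 0.186 for Hist2h2be, which had -0.0255 within the cultures numbered 2. The causes were not tested. At 19780486 counts in the smallest library, genes near 1 CPM rested on about 20 reads.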
